A study of Mus musculus with 32 samples.

Results

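The genes described here are *Esrrb*, *Tfcp2l1*, *Nr5a2* and *Nr0b1*, 4 of the 51826 genes in the table, chosen by name as transcription factors of the naive pluripotency network that belong to, or act beside, the set repressed by TCF3. RNA was sequenced from mouse embryonic stem cells (ESCs) of the RGd2 line, which carries a Rex1-GFPd2 reporter of the naive state, and from knockout lines made in it by CRISPR. All lines therefore share the reporter. There were 32 libraries in 11 conditions, with 3 libraries per condition except for *Etv5*-KO at N16h, which had 2. According to the published methods it was an RGd2 N16h library that was lost, but the sample labels, followed here, list 3 for that condition.

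RGd2 cells were sampled in 2i, in 2i after 5 passages (2i-p5), 16 h and 72 h after transfer to N2B27 without inhibitors (N16h and N72h), and after 2 passages in Chiron alone (CHp2). 2i is N2B27 medium with Chiron (CH), which inhibits GSK3, and PD, which inhibits MEK. *Rbpj*-KO and *Etv5*-KO lines were sampled in 2i and at N16h. Per the study's methods, cells for the 2i and N16h samples were routinely kept in CH and LIF and moved to 2i shortly before, so 2i and 2i-p5 differ in culture history. Lines lacking both *Etv5* and *Rbpj* (ER-dKO) were sampled after 5 passages in Chiron (CHp5), and lines lacking *Etv5*, *Tcf3* and *Rbpj* (ETR-tKO) after 5 passages in N2B27 (Np5). Of the 3 RGd2 libraries per condition, 2 came from the parental line and 1 from a clone of it, whereas each mutant library in a condition came from a different clone. The same 3 *Rbpj*-KO clones, and 2 of the 3 *Etv5*-KO clones, recur at N16h. Of the ETR-tKO clones, 2 have names with the same (Tc1) prefix.

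ESRRB is an orphan nuclear receptor that binds DNA as a monomer and is one of the central factors of ESC self-renewal. TFCP2L1 is a transcription factor of the CP2 family and acts in the same network. NR5A2 is a nuclear receptor that can activate the gene for OCT4, and NR0B1 (DAX1) is an unusual nuclear receptor that lacks the classical DNA-binding domain and acts as a cofactor of other receptors. TCF3, the product of *Tcf7l1*, represses several naive genes, and inhibition of GSK3 stabilizes beta-catenin, which relieves that repression. LIF and STAT3 provide a further input to *Tfcp2l1* and other naive factors.

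In the GRCm38/mm10 build *Esrrb* (ENSMUSG00000021255.17) lies on chromosome 12 from 86361117 to 86521628 on the plus strand and *Tfcp2l1* (ENSMUSG00000026380.10) on chromosome 1 from 118627945 to 118685168 on the plus strand. *Nr5a2* (ENSMUSG00000026398.14) lies on chromosome 1 from 136842571 to 136960448 on the minus strand and *Nr0b1* (ENSMUSG00000025056.4) on chromosome X from 86191764 to 86195947 on the plus strand. *Tfcp2l1* contains 3 small annotated genes, 1 of them on its own strand, and the highest count of any of these in a library was 12. No other annotated gene overlaps the remaining members.

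*Tcf3* was deleted with a pair of guides, shown because they define the triple mutant, which lacks TCF3. Both were matched here to the coding transcripts of *Tcf7l1* on the minus strand of chromosome 6, and both lie antisense to it. The exon 1 guide with its PAM covers 72788844 to 72788866 and the exon 3 guide 72788228 to 72788250. They are written 5′ to 3′ with the PAM in capitals.
Exon 1 guide: tcagctcgtcgttcgctccgAGG
Exon 3 guide: gagacaggggtccgttggagAGG

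Promoters were taken from RefSeq (GRCm38.p6) for all 4 genes, as windows from 250 bases before to 50 bases after each of 6 start sites, to set the promoters of genes with different profiles side by side. Both strands were searched for CTTTGA, the core bound by TCF/LEF factors, for AGGTCA, the nuclear receptor half-site, and for the TFCP2L1 tandem site. CTTTGA occurred in 16% of 32851 mouse promoter windows, AGGTCA in 16.3% and the TFCP2L1 tandem site in 3.44%. In the *Nr0b1* window CTTTGA began 139 bases and AGGTCA 126 bases before the start site, without overlap. One of 2 *Nr5a2* windows held AGGTCA, beginning 64 bases before the start, and the windows of *Esrrb* and *Tfcp2l1* held none of the 3 motifs. The 250 bases before the start are shown for the promoters with a match, 5′ to 3′ on the strand of the gene, with matches in capitals. They are chrX:86191525-86191774 on the plus strand for *Nr0b1* and chr1:136960449-136960698 on the minus strand for *Nr5a2*.
Nr0b1 promoter: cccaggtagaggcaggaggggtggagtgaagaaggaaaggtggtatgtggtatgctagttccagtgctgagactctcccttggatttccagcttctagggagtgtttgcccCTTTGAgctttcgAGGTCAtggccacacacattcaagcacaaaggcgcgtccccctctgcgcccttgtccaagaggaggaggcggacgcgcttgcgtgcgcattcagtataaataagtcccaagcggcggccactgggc
Nr5a2 promoter: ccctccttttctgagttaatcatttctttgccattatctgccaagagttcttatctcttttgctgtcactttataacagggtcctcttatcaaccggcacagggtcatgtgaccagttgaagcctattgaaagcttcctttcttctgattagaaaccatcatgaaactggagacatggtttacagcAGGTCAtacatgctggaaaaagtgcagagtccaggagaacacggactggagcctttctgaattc

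Libraries held between 5986857 and 71439411 counts on genes, the lowest in RGd2 2i replicate 33. Spike-in transcripts took 0.991% to 1.52% of counts, the lowest share in RGd2 2i replicate 31. Levels are given as spike-in-scaled FPKM, that is fragments per kilobase of gene, relative to a library size set by the ERCC spike-ins, so they can be compared between genes and between conditions. *Etv5* was lower in every *Etv5*-KO, ER-dKO and ETR-tKO library (10.5 to 31.9) than in every RGd2 library (82.9 to 158.6). *Rbpj* was 2.97 to 3.8 in *Rbpj*-KO against 12.1 to 15.5 in RGd2 in 2i, and 7.59 to 8.50 against 37.5 to 38.8 at N16h. The library labelled ER-dKO from clone ERc9 had 10.6 for *Rbpj*, no lower than RGd2 2i-p5 at 8.61 to 10.3. The other ER-dKO clones had 3.46 and 3.97, and the ETR-tKO libraries 4.74 to 7.14. Reads from exons that were not deleted would still count towards the gene, but whether they account for the level in ERc9 was not tested. *Tcf7l1* was 0.288 to 1.19 in ETR-tKO and 4.57 to 5.84 in RGd2 2i-p5. *Pou5f1*, *Sox2*, *Utf1*, *Sall4*, *Dppa5a* and *Zfp42*, the ESC markers, were detected in every condition, and their summed level was 828 to 905 at N72h and at least 1572 elsewhere. *Dppa5a* made up most of the sum in RGd2 2i (mean 1689) and had a mean of 302.3 at N72h, so the sum does not show how each other marker changed. Fibroblast markers (*Col1a1*, *Thy1*, *Col3a1* and *Postn*) summed to 5.84 at most, with *Postn* at 3 counts or fewer in every library of each condition. Because RNA came from whole cultures, fewer cells expressing a gene and less RNA per cell cannot be told apart.

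Across the 11 conditions the mean level of *Esrrb* spanned 5.34 to 124.9, a range of 23.4-fold. *Tfcp2l1* spanned 2.49 to 131.2 (52.6-fold), *Nr5a2* 0.270 to 24.8 (92.0-fold) and *Nr0b1* 2.54 to 133.5 (52.6-fold). *Nr5a2* had the widest range, and the lowest mean in every condition except *Rbpj*-KO 2i and ER-dKO, where *Nr0b1* was lower. All 4 genes were lowest in RGd2 at N72h, where no library overlapped with any other condition.

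**Figure D1:**
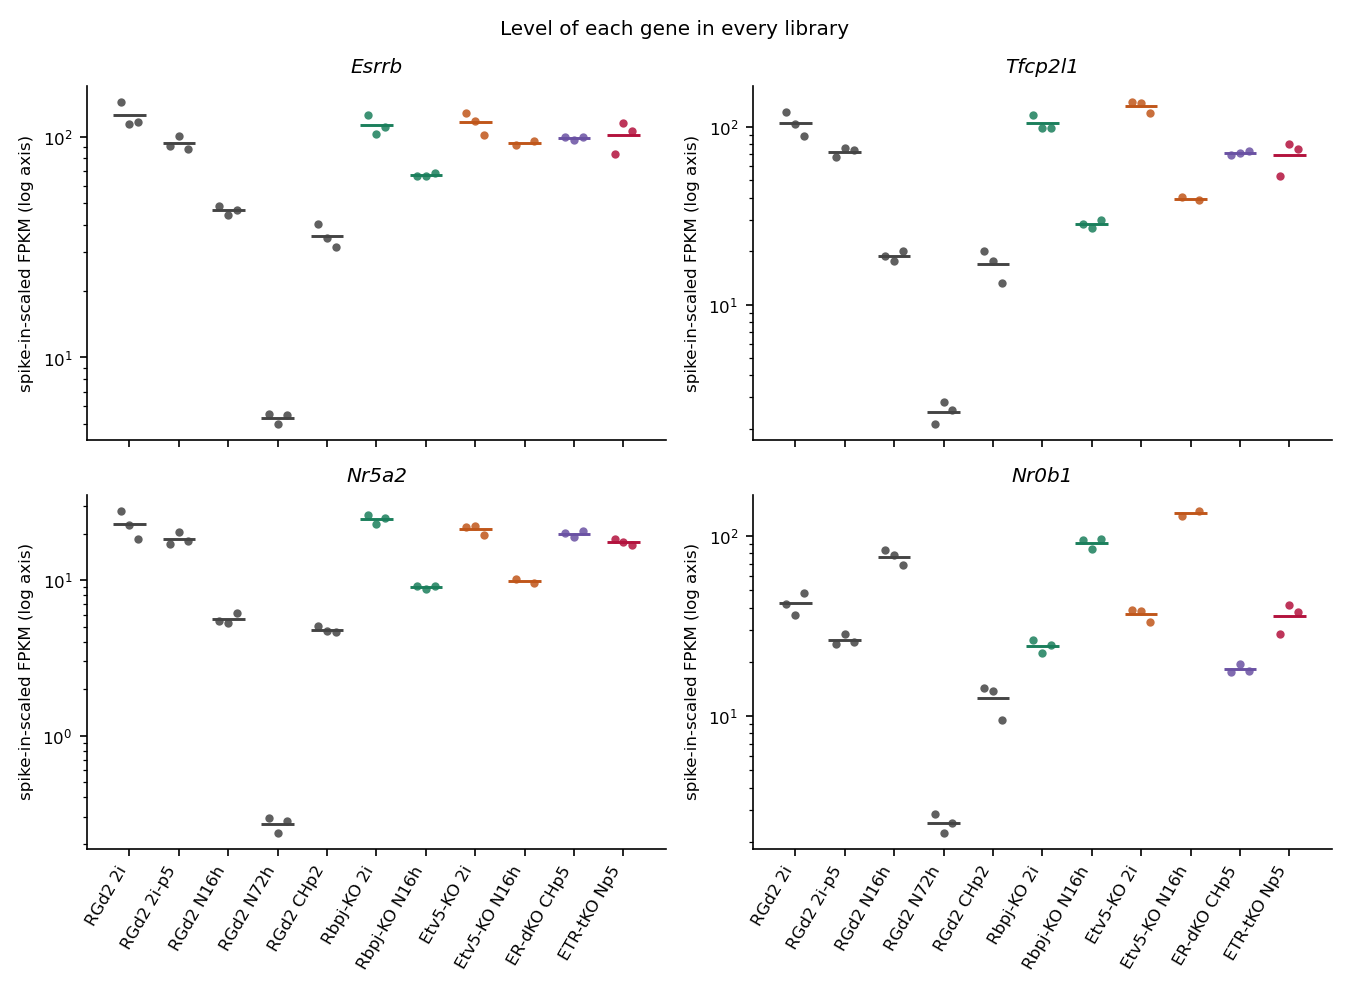
Level of each gene in every library (points) with the mean per condition (bars), in spike-in-scaled FPKM on log axes. *Esrrb*, *Tfcp2l1* and *Nr5a2* step down from 2i to N16h to N72h, whereas the 3 highest conditions for *Nr0b1* are those at N16h.

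For *Esrrb* the order of means was RGd2 2i, *Etv5*-KO 2i, *Rbpj*-KO 2i, ETR-tKO, ER-dKO, *Etv5*-KO N16h, RGd2 2i-p5, *Rbpj*-KO N16h, RGd2 N16h, RGd2 CHp2 and RGd2 N72h. Neighbours overlapped down to ER-dKO, as did *Etv5*-KO N16h and RGd2 2i-p5, and each later step separated the libraries. *Tfcp2l1* and *Nr5a2* both ran from a group of 6 conditions that held all 2i cultures, ER-dKO and ETR-tKO to *Etv5*-KO N16h, *Rbpj*-KO N16h, RGd2 N16h, CHp2 and N72h, in this order. For *Tfcp2l1* the *Etv5*-KO, RGd2 and *Rbpj*-KO 2i cultures lay apart from 2i-p5, ER-dKO and ETR-tKO, whereas for *Nr5a2* all neighbours within this group overlapped. The lower neighbours were separate for both genes, except that RGd2 N16h and CHp2 overlapped for *Tfcp2l1*. *Nr0b1* had another order, with *Etv5*-KO N16h first, then *Rbpj*-KO N16h and RGd2 N16h, each separate from the next. ER-dKO, CHp2 and N72h stood last, and were again separate from each other.

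The first comparison addresses loss of the naive state after withdrawal of both inhibitors. By 16 h *Esrrb*, *Tfcp2l1* and *Nr5a2* fell in RGd2 cells, and *Nr0b1* rose. *Tfcp2l1* was 121.7, 104.4 and 88.4 in the 2i libraries and 18.7, 17.7 and 19.9 at N16h, a log2 fold change of −2.49 (SE 0.13, adjusted p = 4.48e-19, quasi-likelihood test in edgeR, adjusted after Benjamini-Hochberg (BH)). *Nr5a2* was 28.1, 22.9 and 18.3 in 2i and 5.49, 5.3 and 6.16 at N16h (log2 fold change −2.07, SE 0.11). *Esrrb* retained the most of the falling genes, with 143.4, 114.6 and 116.8 in 2i and 48.7, 44.0 and 46.3 at N16h, or 37.1% of its 2i mean against 24.4% for *Nr5a2* and 17.9% for *Tfcp2l1*.

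*Nr0b1* had 42.0, 36.5 and 48.0 in 2i and 83.5, 77.9 and 68.7 at N16h. Every N16h library was above every 2i library, and the log2 fold change was 0.90 (95% confidence interval 0.66 to 1.14, BH-adjusted p = 5.17e-08, edgeR quasi-likelihood test). To be called changed, a gene had to pass an adjusted p of 0.05 and reach a group mean of 1 FPKM. By this rule all 4 genes were called, where 50.0% of the 11748 genes tested with that FPKM were called (41.0% of the tested genes lower and 8.95% higher). The median gene tested stood at a log2 fold change of −0.24, and of all calls 17.9% were higher, against 45.2% when libraries were scaled on their own genes by TMM. All 4 directions held with TMM (*Esrrb* −1.25, *Tfcp2l1* −2.29, *Nr5a2* −1.85, *Nr0b1* 1.08).

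Of the 18 other genes in a list of the naive network, 12 fell over these 16 h and 1 rose, with a median log2 fold change of −1.03. *Prdm14*, a repressor of differentiation genes, fell by 2.83 on the log2 scale, the largest fall in the list, and *Nanog* by 2.49. *Gbx2*, a LIF-responsive homeobox gene, was the gene that rose (2.19). *Tcf7l1* itself fell by 0.65 on the log2 scale (BH-adjusted p = 0.00194, edgeR quasi-likelihood test). Formative markers (*Pou3f1*, *Otx2*, *Fgf5*, *Lef1*, *Dnmt3a*, *Dnmt3b* and *Sox3*, 7 of 7 measured) summed to 55.5 to 71.2 in 2i and 148.7 to 196.9 at N16h, and their part in these results was not tested.

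Between 16 h and 72 h all 4 genes fell, and *Nr0b1* fell the most. Its libraries went from 83.5, 77.9 and 68.7 at N16h to 2.85, 2.24 and 2.53 at N72h, a log2 fold change of −4.90 (SE 0.16, BH-adjusted p = 8.29e-27, edgeR quasi-likelihood test). *Nr5a2* ended at 0.293, 0.236 and 0.281, from 43, 23 and 70 counts, and fell by 4.35 on the log2 scale. *Esrrb* fell by 3.11 to between 4.99 and 5.52, and *Tfcp2l1* by 2.92 to between 2.12 and 2.82. In all, 63.5% of the 12280 genes were called here, 31.0% lower, and the median of all genes was 0.00.

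At N72h 4.27% of the 2i mean of *Esrrb* was left, 2.38% of *Tfcp2l1*, 1.17% of *Nr5a2* and 6.03% of *Nr0b1*. In the naive list 16 of 18 genes fell over this interval and 1, *Stat3*, rose by 0.83, with a median of −1.98. Formative markers summed to 459 to 519 and neural markers (*Sox1*, *Pax6*, *Neurog2* and *Nes*) to 38.3 to 48.8, where RGd2 2i had 1.55 to 4.47 for the latter. The neural sum at N72h was nearly all *Nes* (mean 42.2), while *Pax6* and *Sox1* fell between N16h and N72h (log2 fold changes of −3.77 and −1.46). The formative sum was mostly *Dnmt3b* (mean 408.4), whereas *Lef1* (5.08 and 14.4) and *Dnmt3a* (18.1 and 33.8) were lower than at N16h. Primitive endoderm markers (*Gata6*, *Gata4*, *Sox17*, *Sox7*, *Pdgfra*, *Dab2* and *Foxa2*) summed to 4.63 to 14.6 at N72h, the highest value in the clonal RGd2 library, and to 0.585 to 2.4 in 2i. Their part in the result was not tested.

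A ratio of 2 genes within a library does not depend on how libraries are scaled. The level of *Nr0b1* relative to *Esrrb* was 0.34 ± 0.062 (SD, n = 3) in RGd2 2i and 1.66 ± 0.15 (SD, n = 3) at N16h, and came back to 0.48 ± 0.035 (SD, n = 3) at N72h. The ratio also rose in both single mutants, from 0.22 ± 0.0066 (SD, n = 3) to 1.37 ± 0.091 (SD, n = 3) in *Rbpj*-KO and from 0.32 ± 0.013 (SD, n = 3) to 1.43 ± 0.034 (SD, n = 2) in *Etv5*-KO. None of the 8 libraries at N16h was below 1.26 and none of the other 24 was above 0.515. For *Tfcp2l1* relative to *Esrrb* the change was downward, from 0.84 ± 0.078 (SD, n = 3) to 0.40 ± 0.023 (SD, n = 3) in RGd2.

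**Figure D2:**
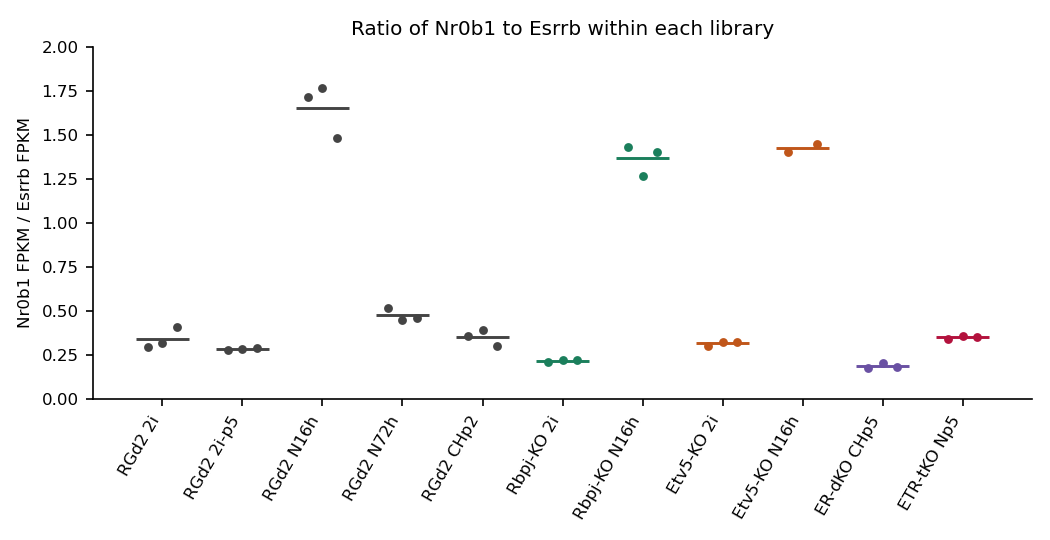
Level of *Nr0b1* divided by that of *Esrrb* in each library (points) with the mean per condition (bars), both in FPKM, on a linear axis from 0. The 8 libraries at N16h lie between 1.26 and 1.77 and the other 24 between 0.177 and 0.515.

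Culture in Chiron alone asks what GSK3 inhibition maintains without the MEK inhibitor. The passage number differed as well, 2 in CHp2 and 5 in 2i-p5. All 4 genes were lower in RGd2 CHp2 than in 2i-p5. *Esrrb* was 91.0, 100.3 and 88.4 in 2i-p5 and 40.1, 34.9 and 31.7 in CHp2 (log2 fold change −1.39, SE 0.11). *Tfcp2l1* fell by 2.10 on the log2 scale and *Nr5a2* by 1.95, and *Nr0b1*, with 25.2, 28.4 and 25.7 against 14.4, 13.8 and 9.53, fell by 1.07 (BH-adjusted p = 7.92e-08, edgeR quasi-likelihood test). No library of one condition overlapped with the other for any of these genes, in a comparison that called 40.2% of 12054 genes.

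The fall went against the median of all genes, which was 0.17 under spike-in scaling. With TMM the falls were from 1.25 for *Nr0b1* to 2.29 for *Tfcp2l1*, and 43.4% of calls were higher instead of 67.8%. In the naive list 15 of 18 genes fell and only *Gbx2* rose (2.95), with a median of −1.04, *Prdm14* falling most (by 3.12). In a list of the Wnt arm 5 of 11 measured genes were called, a share close to that of all genes: *T* (3.74), *Cdx1*, *Lef1* and *Sp5* rose and *Axin2* fell by 0.42. *Tcf7l1* fell by 1.29 on the log2 scale. Mesendoderm markers (*T*, *Mixl1*, *Gsc* and *Mesp1*) summed to 65.2 to 70.4 in CHp2 and 5.58 to 6.73 in 2i-p5, almost all of it *T* (means of 67.1 and 5.134). *Mixl1* was 0.544 and 0.304 and *Mesp1* 0.101 and 0.079, and *Gsc* was lower in CHp2, at 3 counts or fewer in every library. Their part was not tested.

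Even so, each gene was higher in CHp2 than at N72h. Culture time and passaging differed between these cultures along with the inhibitor, and their parts cannot be told apart. *Nr5a2* was 4.67 to 5.07 in CHp2 and 0.236 to 0.293 at N72h, a log2 difference of 4.12 (SE 0.20). *Tfcp2l1* differed by 2.77, *Esrrb* by 2.73 and *Nr0b1* by 2.29 (BH-adjusted p = 2.69e-13, edgeR quasi-likelihood test), all higher in CHp2. Of 12153 genes 38.3% were called, 19.9% higher.

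Long-term 2i cells had somewhat lower levels than cells moved to 2i from CH and LIF, but this rested on the scaling. The log2 fold changes of 2i-p5 against 2i were −0.42 for *Esrrb*, −0.53 for *Tfcp2l1*, −0.34 for *Nr5a2* and −0.64 for *Nr0b1*, all called, where 56.3% of 11552 genes were called, 53.3% lower. Libraries of both cultures lay apart for every member except *Nr5a2*. The median of all genes was −0.39, and with TMM 53.2% of calls were higher instead of 5.26%. On that scale none of the 4 passed the threshold, where 26.0% of genes did, and *Nr5a2* stood at 0.012. Without RGd2 2i replicate 31 the change of *Nr5a2* was −0.17 and was no longer called, and all genes called numbered 3335 instead of 6503. *Tcf7l1* fell by 1.08 on the log2 scale between these cultures.

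Loss of RBPJ, the DNA-binding partner of NOTCH, left *Esrrb*, *Tfcp2l1* and *Nr5a2* not called in 2i, and their libraries overlapped with those of RGd2. *Esrrb* was 102.5 to 126.0 in the mutants and 114.6 to 143.4 in RGd2. The 95% confidence intervals of the log2 difference were −0.37 to 0.07, −0.26 to 0.25 and −0.14 to 0.28. *Nr0b1* was lower, with 26.5, 22.4 and 24.7 in the mutants and 42.0, 36.5 and 48.0 in RGd2 (log2 fold change −0.76, SE 0.13, BH-adjusted p = 2.24e-05, edgeR quasi-likelihood test), and with TMM it was −0.71. Without RGd2 2i replicate 33 the number of all genes called was 2351 instead of 1491. In this comparison 12.9% of 11546 genes were called, 7.44% lower, and 42.4% of calls were higher against 59.0% with TMM. Of the naive list *Klf4*, *Tbx3* and *Stat3* were higher, *Dppa3* and *Gbx2* lower, and the median was 0.09.

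At N16h the picture differed. *Esrrb* was 66.2, 66.7 and 68.1 in *Rbpj*-KO and 48.7, 44.0 and 46.3 in RGd2, a log2 fold change of 0.53 (SE 0.11, BH-adjusted p = 0.000315, edgeR quasi-likelihood test). *Tfcp2l1* (28.5, 26.9 and 30.0) was higher by 0.60 and *Nr5a2* (9.17, 8.75 and 9.17) by 0.68, again with every mutant library above every RGd2 library. *Nr0b1* had 94.95, 84.3 and 95.7 and a log2 difference of 0.26, which did not pass (adjusted p = 0.107, edgeR quasi-likelihood test, BH-adjusted; range over alternatives 0.0184 to 0.546). Thus 3 of 4 members were called higher, where 20.4% of 11717 genes were called higher and 24.2% called at all. The median of all genes was 0.14, 84.2% of calls were higher against 57.0% with TMM, and with TMM the 3 genes had 0.39, 0.46 and 0.54.

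In the naive list 12 of 18 genes were higher in *Rbpj*-KO at N16h, led by *Tbx3* (1.55), and *Dppa3*, lower already in 2i, was the gene that was lower (−3.43), with a median of 0.38. One *Rbpj*-KO line, c36, had primitive endoderm markers summing to 8.65 in 2i and 10.96 at N16h, whereas the other 2 lines had at most 2.08. Its *Esrrb* level at N16h, 68.1, lay within 2 units of the other lines, and without its N16h library the 3 genes were still called, with log2 fold changes of 0.52 for *Esrrb*, 0.57 for *Tfcp2l1* and 0.67 for *Nr5a2*. Neural markers summed to 19.5 to 22.9 in *Rbpj*-KO at N16h and 2.99 to 4.18 in RGd2, most of it *Nes* (means of 16.5 and 1.33), with *Neurog2* at 3 counts or fewer in every library of both groups. Their part was not tested.

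Over the 16 h, *Rbpj*-KO cells kept 59.3% of their 2i mean of *Esrrb*, 36.4% of *Nr5a2* and 27.2% of *Tfcp2l1*, and *Nr0b1* reached 373.1%. All 4 changes were called, where 28.8% of 11776 genes were, 12.4% higher and 16.4% lower. The log2 fold changes, in the same order, were −0.75, −1.45, −1.88 and 1.91 (adjusted p = 2.52e-16 for *Nr0b1*, edgeR's quasi-likelihood test (BH-adjusted)). Line by line, *Esrrb* kept 52.6% in c28, 65.1% in c33 and 61.6% in c36, and *Nr0b1* rose to 357.9%, 375.7% and 387.1%.

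The mutant response differed from that of RGd2 in the direction of higher N16h levels for all 4 genes, where 4.79% of 12162 genes were called and 4.60% in that direction. The difference in log2 response was 1.02 for *Nr0b1* (SE 0.17, BH-adjusted p = 0.000122, edgeR quasi-likelihood test), 0.68 for *Esrrb*, 0.61 for *Nr5a2* and 0.61 for *Tfcp2l1*. For *Tfcp2l1* the adjusted p was 0.0468 in the edgeR quasi-likelihood test (BH-adjusted), ranged from 0.00416 to 0.222 over the alternatives, and passed the threshold in only 2 of 12 fits that left out a library. *Nr5a2* lost its call when *Rbpj*-KO 2i replicate 29 (0.56), RGd2 N16h replicate 23 (0.57) or RGd2 2i replicate 31 (0.45) was left out. The median of all genes was 0.23, and 96.0% of calls were higher against 68.7% with TMM, which called 4.07% of genes and not *Tfcp2l1* (0.42). Leaving out RGd2 2i replicate 31, *Rbpj*-KO 2i replicate 29 or *Rbpj*-KO N16h replicate 21 took the number of all genes called from 582 to 249, 343 and 364, and leaving out RGd2 2i replicate 33 took it to 1530. For *Nr0b1* the mutant and RGd2 differed by −0.76 in 2i and 0.26 at N16h.

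**Figure D3:**
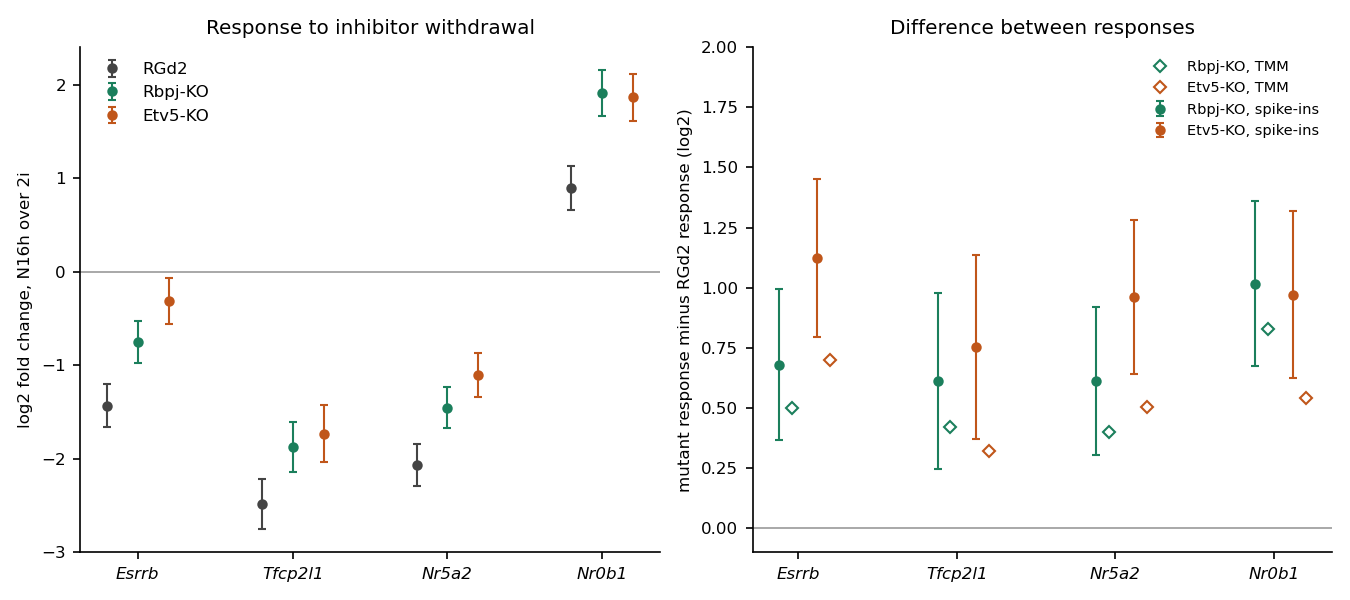
Left, log2 fold change from 2i to N16h of each gene in RGd2, *Rbpj*-KO and *Etv5*-KO, with 95% confidence intervals. Right, mutant response minus RGd2 response under spike-in scaling (filled, with 95% confidence intervals) and TMM (open): all values are above 0, and those of *Etv5*-KO drop more with TMM, as for *Esrrb* from 1.12 to 0.70.

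ETV5 is an ETS factor downstream of FGF and ERK signalling. In 2i, *Etv5*-KO libraries overlapped with RGd2 for all 4 genes. *Tfcp2l1* (137.8, 135.6 and 120.3 against 121.7, 104.4 and 88.4) was higher by 0.32 on the log2 scale with an adjusted p of 0.046 in edgeR's quasi-likelihood test (BH-adjusted). It was called in only 2 of 6 fits that left out a library, and the adjusted p ranged from 5.55e-05 to 0.289 over all alternatives. With TMM it was higher by 0.52 (adjusted p = 5.55e-05, edgeR quasi-likelihood test, BH-adjusted), where 2240 of 11581 genes were called higher. In FPKM on each library's own gene total, *Tfcp2l1* did not overlap, with 129.8 to 136.3 in *Etv5*-KO and 94.3 to 97.7 in RGd2. The intervals of the others were −0.33 to 0.11 for *Esrrb*, −0.35 to 0.06 for *Nr5a2* and −0.42 to 0.07 for *Nr0b1*. Here 39.9% of 11569 genes were called, 6.41% higher, the median of all genes was −0.25, and 16.0% of calls were higher against 55.8% with TMM. Without RGd2 2i replicate 31 the number of calls was 2706 instead of 4618, and without RGd2 2i replicate 33 *Nr5a2* was called at −0.26.

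All 4 genes were higher in *Etv5*-KO than in RGd2 at N16h. *Esrrb* was 92.0 and 95.3 in the 2 mutant libraries, against RGd2 libraries at 44.0 to 48.7 (log2 fold change 1.02, SE 0.12, BH-adjusted p = 9.42e-09, edgeR quasi-likelihood test). *Tfcp2l1* (40.3 and 38.6) was higher by 1.07, *Nr5a2* (10.2 and 9.61) by 0.82 and *Nr0b1* (129.0 and 138.1) by 0.80, each separate from RGd2. These values of *Nr0b1* were the highest in the series. Of 11735 genes 37.3% were called, 33.3% higher, with a median of 0.24, and 89.1% of calls were higher against 56.4% with TMM. With TMM the values were 0.78, 0.84, 0.59 and 0.57. Leaving out *Etv5*-KO N16h replicate 18 took the number of all genes called from 4382 to 2328, and all 4 members were still called.

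Of the naive list 14 of 18 genes were higher in *Etv5*-KO at N16h and *Gbx2* was lower (−0.76), the largest rise being that of *Tbx3* (2.67), with a median of 0.69. *Tcf7l1* RNA was also higher, by 1.06 (BH-adjusted p = 6.96e-06, edgeR quasi-likelihood test), and its part in the levels of the 4 genes was not tested. Formative markers summed to 97.8 to 117.7, below RGd2 at N16h (148.7 to 196.9).

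Within *Etv5*-KO, *Esrrb* kept 80.7% of its 2i mean over the 16 h, *Nr5a2* 46.5% and *Tfcp2l1* 30.1%, and *Nr0b1* reached 364.3%. Line c17 kept 77.9% of *Esrrb* and line c1 93.3%. The log2 fold change of *Esrrb*, −0.31, had an adjusted p of 0.0403 in edgeR's quasi-likelihood test (BH-adjusted). With TMM it was larger, at −0.55 (adjusted p = 1.83e-06, edgeR quasi-likelihood test, BH-adjusted). With the clonal line as replicate block it was −0.23 (adjusted p = 0.208, edgeR quasi-likelihood test, BH-adjusted), and it was called in 1 of 5 fits that left out a library, with adjusted p from 1.83e-06 to 0.208 over all alternatives. *Tfcp2l1* (−1.73), *Nr5a2* (−1.10) and *Nr0b1* (1.87) were called in each of these fits. In this comparison 45.8% of 11832 genes were called, 35.3% higher and 10.5% lower, the median of all genes was 0.24, and 77.0% of calls were higher against 44.8% with TMM. Without *Etv5*-KO N16h replicate 18 the calls numbered 3497 instead of 5415.

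*Esrrb*, *Nr5a2* and *Tfcp2l1* fell less over the 16 h in *Etv5*-KO than in RGd2, and *Nr0b1* rose more. The difference in log2 response, in the direction of higher N16h levels, was 1.12 for *Esrrb* (SE 0.16, BH-adjusted p = 1.34e-06, edgeR quasi-likelihood test), 0.97 for *Nr0b1*, 0.96 for *Nr5a2* and 0.75 for *Tfcp2l1*. Here 46.1% of 12246 genes were called, 45.5% in this direction. The median of all genes was 0.49 under spike-in scaling and 0.015 with TMM, so a shift shared by most genes rested on the scaling. With TMM the share of calls in this direction was 64.3% instead of 98.7%, the values were 0.70, 0.54, 0.51 and 0.32, and that of *Tfcp2l1* was not called, where 14.2% of genes were. Without RGd2 2i replicate 31 or *Etv5*-KO N16h replicate 18 the number of calls was 2971 or 2861 instead of 5644. Both mutants were compared with the same RGd2 libraries, so their responses are not independent.

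In ER-dKO cells, kept in Chiron alone, *Esrrb*, *Tfcp2l1* and *Nr5a2* had levels that overlapped with those of RGd2 2i-p5. *Tfcp2l1* was 69.2, 71.5 and 73.0 in ER-dKO, 68.0, 75.7 and 73.9 in RGd2 2i-p5 and 20.1, 17.5 and 13.2 in RGd2 CHp2. Against CHp2 the log2 fold changes were 2.07 for *Tfcp2l1* (SE 0.13, BH-adjusted p = 9.05e-17, edgeR quasi-likelihood test), 2.06 for *Nr5a2* and 1.47 for *Esrrb*, with no overlap. *Nr0b1* was 17.6, 19.4 and 17.8 against 14.4, 13.8 and 9.53, higher by 0.54. All 4 were called, where 50.8% of 12083 genes were, 29.0% higher. Without clone ERc9 the values were 2.06, 2.03, 1.46 and 0.56 for *Tfcp2l1*, *Nr5a2*, *Esrrb* and *Nr0b1*, all still called. The passage number also differed between these cultures (5 and 2).

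Against RGd2 2i-p5 the intervals of the log2 difference were −0.14 to 0.30 for *Esrrb*, −0.28 to 0.23 for *Tfcp2l1* and −0.10 to 0.31 for *Nr5a2*. *Nr0b1* was lower by 0.53 on the log2 scale (SE 0.13, BH-adjusted p = 0.001, edgeR quasi-likelihood test), every ER-dKO library being below every 2i-p5 library. Only 1 of 4 members was called, in a comparison that called 43.9% of 11562 genes, 8.87% lower. The median of all genes was 0.20, 79.8% of calls were higher against 52.6% with TMM, and with TMM the value of *Nr0b1* was −0.73. In the naive list 13 of 18 genes were higher, with *Klf4* at 1.97, and *Dppa3* (−5.52), *Gbx2* and *Prdm14* lower, with a median of 0.43 (0.22 with TMM). Trophoblast markers (*Cdx2*, *Elf5*, *Eomes*, *Hand1*, *Ascl2*, *Gata3* and *Plet1*) summed to 17.3 to 19.2 in ER-dKO and 4.67 to 6.54 in 2i-p5. *Eomes* had means of 10.95 and 2.36 and *Cdx2* of 2.11 and 2.19. *Ascl2* (0.391 and 0.578) and *Gata3* (0.045 and 0.104) were lower in ER-dKO. The sum was also higher in *Rbpj*-KO 2i (17.5 to 22.4) than in RGd2 2i (9.14 to 11.9). The part of these markers was not tested.

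ETR-tKO cells grew without either inhibitor and lacked TCF3. Their levels were of the order of 2i-p5 and far above N72h, the RGd2 culture without inhibitors. *Nr5a2* was 18.6, 17.7 and 16.8 in ETR-tKO and 0.293, 0.236 and 0.281 at N72h, a log2 fold change of 6.01 (SE 0.17, BH-adjusted p = 1.64e-28, edgeR quasi-likelihood test). *Tfcp2l1* was higher by 4.80, *Esrrb* by 4.24 and *Nr0b1* by 3.79, where 61.5% of 12338 genes were called, 36.8% higher. Time in N2B27 differed between these samples, and no RGd2 culture of 5 passages in N2B27 was compared.

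Relative to RGd2 at N16h the members split again, although genotype and time in N2B27 (5 passages against 16 h) cannot be told apart here. *Esrrb* was higher in ETR-tKO by 1.13, *Tfcp2l1* by 1.89 and *Nr5a2* by 1.66, and *Nr0b1*, with 28.5, 41.2 and 37.6 against 83.5, 77.9 and 68.7, was lower (log2 fold change −1.11, SE 0.12, BH-adjusted p = 9.05e-11, edgeR quasi-likelihood test). No library overlapped for any of the 4, and 48.8% of 11918 genes were called, 32.6% higher and 16.3% lower. The median was 0.12, 66.7% of calls were higher against 52.2% with TMM, and all 4 directions held with TMM.

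Compared with 2i-p5, the intervals of the log2 difference in ETR-tKO were −0.10 to 0.35 for *Esrrb*, −0.32 to 0.19 for *Tfcp2l1* and −0.28 to 0.14 for *Nr5a2*. *Nr0b1* was higher by 0.42 (SE 0.12, BH-adjusted p = 0.00603, edgeR quasi-likelihood test). Thus 1 of 4 members was called, where 48.1% of 11814 genes were, 38.0% higher. These values moved with the scaling, since the median of all genes was 0.26 and 79.1% of calls were higher against 47.7% with TMM. With TMM, *Tfcp2l1* (−0.32) and *Nr5a2* (−0.31) were called lower and *Nr0b1* (0.18) was not called, where 50.6% of genes were. Without ETR-tKO replicate 14 *Nr0b1* stood at 0.31 and was not called either.

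**Figure D4:**
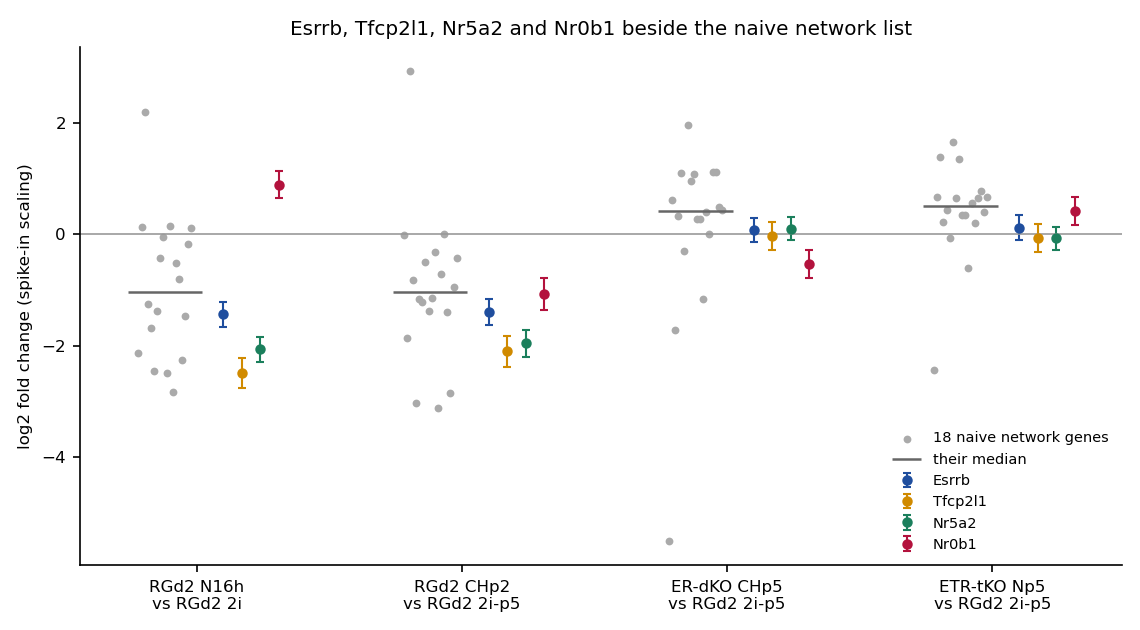
Log2 fold change under spike-in scaling of 18 naive network genes (grey, with their median) and of the 4 genes described here (with 95% confidence intervals) in 4 comparisons. *Nr0b1* is above 0 at N16h (0.90), unlike the other 3, and 1 of the grey genes in ER-dKO, *Dppa3*, is at −5.52.

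*Tfcp2l1*, *Esrrb* and *Nr0b1* varied among the clones of the triple mutant. *Tfcp2l1* was 52.7 in clone (ETc1)Rc53 and 80.5 and 74.7 in the 2 (Tc1) clones. In the same order *Esrrb* was 83.7, 115.3 and 106.1, and *Nr0b1* was 28.5, 41.2 and 37.6. *Nr5a2* did not follow, with 18.6 in (ETc1)Rc53, the highest of the 3. The coefficient of variation of *Tfcp2l1* was 21.2% in ETR-tKO and 2.69% in ER-dKO, whereas that of *Nr5a2* was 4.89% in both. This equality for *Nr5a2* rested on the scaling. In FPKM on each library's own gene total it was 17.1 ± 1.70 (SD, n = 3) in ETR-tKO and 18.9 ± 0.58 (SD, n = 3) in ER-dKO. *Tcf7l1* was 0.288 in (ETc1)Rc53 and 1.19 and 1.05 in the others.

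In a list of the Wnt arm, 6 of 11 measured genes were lower in ETR-tKO than in 2i-p5, namely *Sp5* (−6.26), *T*, *Lef1*, *Cdx1*, *Axin2* (−1.87) and *Tcf7*. Of all 11814 genes in this comparison, 1186 were called lower and 4492 higher. *Ctnnb1* (0.24) and *Gsk3b* (0.28) were higher, but stood at −0.0089 and 0.040 with TMM. In the naive list 13 of 18 genes were higher, led by *Klf4* (1.67), and *Dppa3* (−2.43) and *Prdm14* lower, with a median of 0.50 (0.25 with TMM). Formative markers summed to 77.2 to 102.1 in ETR-tKO and 32.9 to 36.3 in 2i-p5, and neural markers to 11.7 to 12.8 and 3.49 to 3.83, with *Neurog2* at 3 counts or fewer in every library of both. *Dnmt3b* (means of 55.3 and 18.4) and *Nes* (9.40 and 3.04) made up most of these sums, and *Lef1* went the other way (0.283 and 5.32). Their part was not tested.

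ER-dKO in Chiron and ETR-tKO in N2B27 were compared next, and *Nr0b1* was the 1 member of the 4 that was called. It was 17.6 to 19.4 in the former and 28.5 to 41.2 in the latter, a log2 fold change of 0.96 (SE 0.12, BH-adjusted p = 2.47e-08, edgeR quasi-likelihood test). The intervals of the others were −0.17 to 0.27 for *Esrrb*, −0.30 to 0.21 for *Tfcp2l1* and −0.38 to 0.03 for *Nr5a2*, whose libraries did not overlap and which was called with TMM (−0.22, where 41.1% of genes were). Of 11632 genes 28.9% were called, 16.7% higher, and 57.9% of calls were higher against 44.3% with TMM. Genotype and medium cannot be told apart in this pair. *Axin2*, a direct Wnt target, was lower in ETR-tKO by 2.17, and the naive list had 3 genes higher and 4 lower with a median of 0.07.

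Close relatives of the 4 genes did not share these ranges. *Esrra*, the paralog of *Esrrb*, ranged over condition means from 5.37 to 7.95, *Tfcp2*, the paralog of *Tfcp2l1*, from 3.74 to 6.05, and *Ubp1*, a further CP2 member, from 17.7 to 25.4. *Esrrg*, *Nr5a1* and *Nr0b2* were not tested, as they had at most 7 counts in any library, and *Nr5a1* at most 2. At N16h *Tfcp2* fell by 0.46 in RGd2 (−0.22 with TMM), whereas *Esrra* (−0.24) and *Ubp1* (−0.17) were not called.

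Of 36 nuclear receptors listed, *Esrrb*, *Nr5a2* and *Nr0b1* included, 31 were tested, and 19 of these reached a mean FPKM of 1 in RGd2 2i or N16h. Between these samples 9 fell and 4 rose, the 3 members among them, with a median of −0.24, where 41.0% of all genes were called lower and 8.95% higher. *Nr5a2* fell the most of all 19, and *Rarg*, a retinoic acid receptor, rose the most (1.15), above *Nr0b1*. Against N72h, ETR-tKO had 9 of the 31 tested receptors called higher and 4 lower, where a call again required a mean of 1 FPKM. Of all 12338 genes with that FPKM, 4536 (36.8%) were called higher and 3054 lower. No test compared the receptors with all genes. *Nr5a2* was the highest receptor and *Nr6a1*, which represses *Pou5f1* during differentiation, the lowest (−1.30).

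The likeness of profiles was described with Pearson correlations of mean log2 levels over the 11 conditions, which share libraries and scaling. *Esrrb* correlated with *Nr5a2* at 0.988 and with *Tfcp2l1* at 0.964, and *Tfcp2l1* with *Nr5a2* at 0.979. *Nr0b1* had correlations of 0.703 with *Esrrb*, 0.606 with *Nr5a2* and 0.523 with *Tfcp2l1*, and its rank correlations (Spearman) were lower, at 0.273, 0.118 and 0.155. The rank correlations among the other 3 were 0.909 to 0.964. Among 7339 genes with a range of at least 1 on the log2 scale, the 5 most like *Esrrb* were *Nr5a2* (0.988), *Pdgfa* (0.982), *Apmap* (0.982), *Fbxo15* (0.981) and *Gm10224* (0.974). For *Tfcp2l1* they were *Urm1* (0.981), *Nr5a2*, *Fbxo15* (0.978), *Wdr76* (0.978) and *Nanog* (0.974), and for *Nr5a2* they were *Esrrb*, *Nodal* (0.980), *Pdgfa* (0.980), *Tfcp2l1* and *Fbxo15* (0.976). *Hcfc2* (0.964), *Eprn* (0.960), *Dgke* (0.957), *Dppa2* (0.956) and *Zmym3* (0.955) were the most like *Nr0b1*, none of them shared with the other 3 lists. The choice of measure matters here, as rank correlations gave none of the same 5 genes for *Esrrb*, *Tfcp2l1* or *Nr5a2* and 2 of 5 for *Nr0b1*.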

How the data were processed

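The authors depleted ribosomal RNA, made strand-specific paired-end libraries with ERCC spike-ins, aligned reads to GRCm38/mm10 with TopHat2 after Trim Galore, and counted them over Gencode M14 genes with featureCounts. The authors deposited raw counts per gene for 32 libraries. IDs without a symbol (193) held 0.0259% of counts. Groups followed the sample labels. Where the labels name no separate cultures beyond the line, p-values measure only the spread between these libraries.

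Libraries were scaled here by median-of-ratios factors on the 52 of 92 spike-ins above 0 in every library. One quasi-likelihood model (edgeR 4.0.16, R 4.3.3) of all libraries tested 18892 genes after filterByExpr, with Benjamini-Hochberg adjustment over all of them. Genes were called below an adjusted p of 0.05 if one of the groups compared averaged 1 FPKM or more. Fold changes carry SEs or 95% intervals. Levels are FPKM on spike-in-scaled library sizes, and likeness used log2 of the level plus 0.1 over genes with a range of at least 1 on that scale. The named genes were the 4 members, close relatives, the targeted genes, the extremes of each list and the 5 most alike genes. Members, lists and tests were chosen with earlier results of these data known, and the naive network list in part comes from studies of such cells, so its direction is no independent evidence. Depth was 5986857 to 71439411 counts, and a gene at 3 counts or fewer was treated as not detected.

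Replicate numbers are not shared between conditions. Clonal lines recur, but deviations of the same line from its group means correlated at −0.03 to 0.09 between conditions for the mutant lines and at −0.04 to 0.18 for the RGd2 lines. The main model had no block, and the block was an alternative. Alternatives were TMM scaling, median-of-ratios factors on genes, DESeq2 1.42.0, other filters, only the libraries compared, the line as replicate block, and leaving out each library. Scripts were tested on simulated data. Promoters came from RefSeq tables (GRCm38.p6), in which all 4 genes were found.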

Additional observations from a re-analysis of the deposited data

Results flagged for a closer look

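The response from 2i to N16h differed between each single mutant and RGd2 for all 4 genes, by a test of the difference itself (edgeR's quasi-likelihood test, Benjamini-Hochberg adjusted, on the difference of both log2 fold changes). In *Rbpj*-KO the difference was 0.68 for *Esrrb* (adjusted p = 0.00604), 0.61 for *Tfcp2l1* (adjusted p = 0.0468), 0.61 for *Nr5a2* (adjusted p = 0.0132) and 1.02 for *Nr0b1* (adjusted p = 0.000122). In *Etv5*-KO it was 1.12 for *Esrrb* (adjusted p = 1.34e-06), 0.75 for *Tfcp2l1* (adjusted p = 0.00244), 0.96 for *Nr5a2* (adjusted p = 1.18e-05) and 0.97 for *Nr0b1* (adjusted p = 3.8e-05). With TMM *Tfcp2l1* was not called in either mutant (adjusted p = 0.0932 in *Rbpj*-KO and 0.154 in *Etv5*-KO, edgeR quasi-likelihood test). In *Rbpj*-KO it passed in 2 of 12 fits that left out a library, and with only the libraries compared in the fit *Esrrb* (adjusted p = 0.0514), *Tfcp2l1* (adjusted p = 0.109) and *Nr5a2* (adjusted p = 0.113) were not called (edgeR quasi-likelihood test). Both mutants were set against the same RGd2 libraries, and 4.79% of genes were called in the first comparison and 46.1% in the second.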

How the results depend on the processing

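Scaling on genes in place of spike-ins moved many values. With TMM, 2i-p5 against 2i gave −0.10 for *Esrrb*, −0.20 for *Tfcp2l1*, 0.012 for *Nr5a2* and −0.31 for *Nr0b1*, none called, and with median-of-ratios factors −0.10, −0.21, 0.0063 and −0.32. *Tfcp2l1* in *Rbpj*-KO 2i was 0.037 and 0.023 under these scalings, and its response difference was 0.42 and 0.43 in *Rbpj*-KO and 0.32 and 0.33 in *Etv5*-KO, no longer called. In *Etv5*-KO 2i they gave 0.085 and 0.071 for *Esrrb*, 0.080 and 0.069 for *Nr5a2*, and 0.028 and 0.016 for *Nr0b1*. *Tfcp2l1* in *Etv5*-KO 2i went from 0.32 to 0.52 with TMM and was still called. ER-dKO against 2i-p5 became −0.12 and −0.13 for *Esrrb* and −0.092 and −0.10 for *Nr5a2*. ETR-tKO against 2i-p5 became −0.13 and −0.12 for *Esrrb*, −0.32 and −0.31 for *Tfcp2l1* (called), −0.31 and −0.30 for *Nr5a2* (called), and 0.18 and 0.19 for *Nr0b1* (not called). Against ER-dKO, *Nr5a2* became −0.22 and −0.19 (called) and *Esrrb* −0.0045 with TMM. Genes called changed to 3011 and 3044 for 2i-p5 against 2i, 2278 and 2285 for *Rbpj*-KO 2i, and 1739 and 1755 for the *Etv5*-KO response.

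*Tfcp2l1* in *Etv5*-KO 2i was not called with DESeq2 (0.32), with legacy deviances in edgeR (0.32, added after seeing the data) or from the libraries compared only (0.32). Legacy deviances also lost its *Rbpj*-KO response (0.61). Fits of the libraries compared only lost *Esrrb* (−0.42) and *Nr5a2* (−0.34) in 2i-p5 and *Esrrb* (0.68), *Tfcp2l1* (0.61) and *Nr5a2* (0.60) in the *Rbpj*-KO response, and called *Nr0b1* in *Rbpj*-KO N16h (0.26). They called 3905 genes at N16h, 3527 in 2i-p5, 832 and 341 in *Rbpj*-KO 2i and its response, and 2269 and 3352 in *Etv5*-KO 2i and its response. With the line as replicate block, *Esrrb* over 16 h in *Etv5*-KO was −0.23 and not called, and no other call of a member changed in the block fits.

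Leaving out each library in turn changed a call or a sign for the following. *Nr5a2* ranged from −0.45 to −0.17 in 2i-p5 against RGd2 2i, 0.45 to 0.73 in the *Rbpj*-KO response, −0.26 to 0.022 in *Etv5*-KO 2i against RGd2 2i, −0.042 to 0.24 in *Rbpj*-KO 2i against RGd2 2i and −0.12 to 0.010 in ETR-tKO against 2i-p5. *Tfcp2l1* ranged from −0.11 to 0.12 in *Rbpj*-KO 2i against RGd2 2i, 0.49 to 0.72 in the *Rbpj*-KO response, 0.22 to 0.44 in *Etv5*-KO 2i against RGd2 2i, −0.070 to 0.0054 in ER-dKO against 2i-p5, −0.19 to 0.10 in ETR-tKO against 2i-p5 and −0.16 to 0.12 in ETR-tKO against ER-dKO. *Esrrb* ranged from −0.18 to 0.0053 in *Etv5*-KO 2i against RGd2 2i, −0.053 to 0.17 in ETR-tKO against ER-dKO and −0.39 to −0.23 in *Etv5*-KO N16h against *Etv5*-KO 2i. *Nr0b1* ranged from 0.31 to 0.57 in ETR-tKO against 2i-p5. Genes called ranged from 3335 to 7501 in 2i-p5 against RGd2 2i, 249 to 1530 in the *Rbpj*-KO response, 2706 to 5966 in *Etv5*-KO 2i against RGd2 2i, 2861 to 7623 in the *Etv5*-KO response, 1030 to 2351 in *Rbpj*-KO 2i against RGd2 2i, 2328 to 4061 in *Etv5*-KO N16h against RGd2 N16h and 3497 to 5352 in *Etv5*-KO N16h against *Etv5*-KO 2i. Leaving out an *Etv5*-KO N16h library leaves 1, assumed to vary like the other groups. All 76 member results kept direction and call under both low-count filter alternatives. Levels on each library's own gene total moved by more than 1 SD in 14 of 44 cases. The cause of these changes was not tested.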
